A study of Mus musculus with 32 samples.

Results

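Whole-body loss of *Gpr146*, an orphan G protein-coupled receptor, was followed in brown adipose tissue (BAT), epididymal white adipose tissue (eWAT) and inguinal white adipose tissue (iWAT) of the same mice. Described here is the knockout effect in brown fat set against that in white fat, taken from 24 of the 32 Affymetrix Mouse Gene 2.1 ST arrays of the study, 1 array for each of 3 depots in 4 *Gpr146* knockout (KO) and 4 wild-type (WT) mice. All were male mice of 20 weeks kept on high fat food for 3 months and killed after a night without food, so the diet and the fast are shared by both genotypes. The KO line was made with CRISPR/Cas9, KO and WT mice were bred from heterozygous parents, and the study worked with C57BL/6 mice. The knockout was of the whole body, so an effect in a fat depot need not start in that depot.

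Every value below is on the log2 scale. The knockout effect is the mean of the 4 KO arrays minus the mean of the 4 WT arrays of a depot, and it was computed for 24645 genes. The depots had been normalized apart, so only differences within a depot are compared, apart from the marker levels that check the tissue labels. For each mouse the BAT value minus the mean of its eWAT and iWAT values was also formed, and the KO and WT mice were compared on it with limma. The result is called the difference of effects, and it is positive where the KO effect was higher in BAT than in white fat. The mean of the 3 depots of each mouse was compared in the same way and gives the common effect. Genes passed at a Benjamini-Hochberg adjusted p below 0.05 over all genes, and the p-values measure the spread between these 8 mice.

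Brown adipocytes burn fatty acids in mitochondria that are uncoupled by UCP1, and noradrenaline switches this on through the β3-adrenergic receptor and the coactivator PGC-1α. White adipocytes store triglyceride, release fatty acids and secrete hormones such as leptin, and in obesity their tissue fills with macrophages that take up lipid. Epididymal fat is a visceral depot with few cells able to turn brown, whereas inguinal fat is subcutaneous and readily does so. Both brown and white fat make fatty acids anew and break down branched-chain amino acids.

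The labelled tissues carried their markers. The mean over 8 brown adipocyte markers lay between 6.69 and 7.44 on the BAT arrays, against 2.53 to 2.84 in eWAT and 3.39 to 4.15 in iWAT. Over 8 white adipocyte markers the mean was 4.85 to 5.46 in BAT, 6.45 to 7.06 in eWAT and 7.03 to 7.58 in iWAT. These levels are only a rough guide, since the depots were normalized apart. The array medians themselves were 2.82 to 2.86 in BAT, 3.13 to 3.17 in eWAT and 3.65 to 3.73 in iWAT.

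*Gpr146* was lower in the KO arrays of every depot, with effects of -1.16 in BAT, -1.53 in eWAT and -1.55 in iWAT. The common effect was -1.41 ± 0.15 (SE, adjusted p = 0.0115), and KO and WT arrays did not overlap in any depot. The difference of effects for *Gpr146* was 0.38 with an adjusted p of 0.603. *C130050O18Rik*, the gene annotated next to *Gpr146* on mouse chromosome 5, went the other way by 2.71, 3.06 and 3.08 in BAT, eWAT and iWAT. In WT mouse 1 *C130050O18Rik* read 5.85, 6.45 and 6.98 in the 3 depots, far above the other WT mice, whose highest values were 3.43, 4.12 and 4.29. *Gpr146* in WT mouse 1 read 5.10, 5.32 and 5.37, the lowest of the WT mice in each depot and still above every KO mouse.

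Some arrays held other tissue. The mean of 16 skeletal muscle markers was 6.16, 7.05 and 7.36 on the BAT arrays of WT mice 2 and 3 and KO mouse 2, and between 3.15 and 3.81 on the other 5. The mean of 12 B lymphocyte markers was 7.48, 7.50, 7.17 and 5.42 on the iWAT arrays of WT mice 1 and 2 and KO mice 2 and 4, and between 3.17 and 3.52 on the rest. None of the muscle or B lymphocyte markers passed for the difference or the common effect. The mean of 20 general macrophage genes in eWAT was 7.80 to 8.0 in the WT mice and 5.57, 6.25 and 5.83 in KO mice 1, 3 and 4, but 7.57 in KO mouse 2, close to the WT level. Heat shock chaperone genes averaged 6.74 to 6.85 in BAT of WT mice 2, 3 and 4 and 5.65 to 5.77 in the KO mice, and WT mouse 1 at 5.78 lay with the KO mice.

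**Figure D1:**
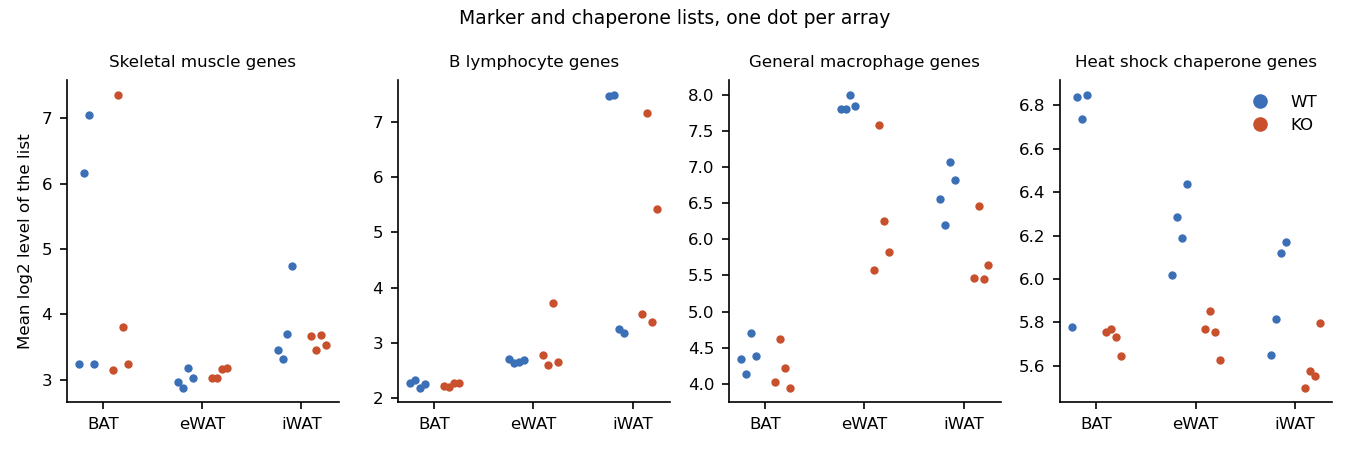
Mean log2 level of the skeletal muscle markers, B lymphocyte markers, general macrophage genes and heat shock chaperone genes on each of the 24 arrays, by depot and genotype, each point 1 mouse. Muscle markers stand out at 6.16 to 7.36 on 3 BAT arrays, B lymphocyte markers on 4 iWAT arrays, and the eWAT array of KO mouse 2 has a macrophage mean of 7.57 near the WT arrays.

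Within single depots the number of genes passing was very uneven. In BAT 7 genes passed (0.0284% of those tested), in eWAT 3758 (15.2%) and in iWAT 0 (0%), although 3126, 7338 and 3803 genes had an unadjusted p below 0.05 by limma. KO and WT arrays did not overlap for 7.23% of genes in BAT, 21.6% in eWAT and 8.15% in iWAT. By the sign of the effect alone, 6294 genes were higher in KO in all 3 depots and 4982 were lower in all 3. A further 2576 genes were higher in BAT and lower in both white depots, and 3669 were lower in BAT and higher in both. The median effect over all genes was 0.00 in BAT, 0.03 in eWAT and 0.02 in iWAT.

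The difference of effects passed for 529 genes, 345 higher in BAT (1.4% of genes) and 184 lower in BAT (0.747%), against 4273 at an unadjusted p below 0.05. Of the 529, 320 had opposite signs in BAT and both white depots, 182 of them higher in BAT and lower in white fat and 138 the reverse. In 184 genes the sign was the same in all 3 depots, and 181 of those had the larger effect in white fat. The 25 left had white depots of differing sign. When each depot was quantile normalized 490 genes passed, of which 50.6% were higher in BAT, against 65.2% of the 529. The opposite genes then were 130 higher and 181 lower in BAT.

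The number passing depended on single mice and on the white depot. It was 0 without WT mouse 4, KO mouse 1 or KO mouse 3, 13 without WT mouse 2, 31 without KO mouse 4, 115 without WT mouse 1 and 151 without WT mouse 3. It was 1666 without KO mouse 2, the mouse with the WT-like macrophage mean in eWAT. With eWAT alone as white fat 1707 genes passed, and with iWAT alone 0. All of the 529 genes kept the sign of their difference without each mouse in turn, and 525 of them with iWAT alone. The 529 had passed on these same mice, so their kept signs are no independent check. Without the 3 mice with muscle in BAT 636 genes passed (306 of them among the 529), and without the 4 mice with B lymphocyte markers in iWAT 647 passed (278 among the 529).

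The opposite genes were unequal in their brown fat part. For the 182 higher in BAT the median effects were 0.13 in BAT, -0.95 in eWAT and -0.50 in iWAT, and 60 of them (33.0%) had a BAT level under the median of the BAT table. For the 138 lower in BAT the medians were -0.28 in BAT, 0.65 in eWAT and 0.41 in iWAT, and 6 of them (4.35%) lay under that median. A BAT effect of at least 0.25 in size was seen in 50 of the 182 and 82 of the 138. Of the 320, 121 had an unadjusted p below 0.05 in BAT by limma (12.7% of all genes did). In 75 KO and WT did not overlap in BAT (7.23% of all genes), and 1, *Agpat2*, passed in BAT itself. The 320 were chosen by a difference that holds the BAT values, so these counts are no separate support for an effect in BAT.

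**Figure D2:**
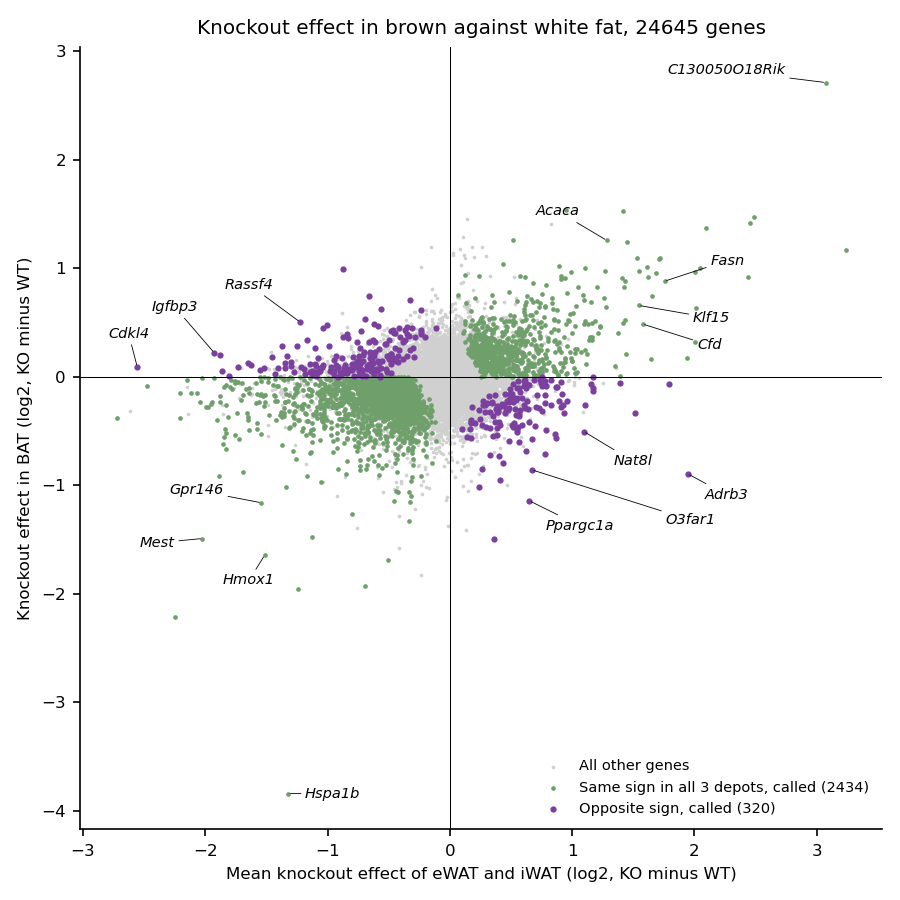
Knockout effect in BAT (vertical axis, log2) against the mean knockout effect of eWAT and iWAT (horizontal axis, log2) for 24645 genes, each point 1 gene. Green points are the 2434 genes with 1 sign in all 3 depots that passed for the common effect, and purple points are the 320 with opposite signs that passed for the difference. *Adrb3* lies at -0.89 in BAT and furthest to the right of the purple points, and *Cdkl4* lies furthest to the left of them with a BAT effect of 0.09.

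Among genes lower in BAT and higher in white fat, the largest difference of effects was that of *Adrb3*, the β3-adrenergic receptor of adipocytes. WT mice 1 to 4 read 6.13, 7.15, 6.61 and 6.58 in BAT, and KO mice 1 to 4 read 6.04, 5.82, 5.48 and 5.56. In eWAT the WT values were 6.58, 5.58, 6.10 and 6.07 and the KO values 8.72, 7.32, 8.45 and 8.79. In iWAT they were 6.09, 5.01, 6.83 and 6.62 in WT and 8.14, 7.21, 7.90 and 7.92 in KO. The genotypes did not overlap in any of the 3 depots, with every KO mouse below the WT mice in BAT and above them in both white depots. The effects were -0.89, 2.24 and 1.66, and the difference was -2.84 ± 0.43 (SE, adjusted p = 0.0213). It was -2.64 without the mice with muscle in BAT and -2.74 without those with B lymphocyte markers in iWAT, and passed in both.

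*Nat8l* makes N-acetylaspartate, which brown adipocytes use as a source of acetyl units. In BAT the WT mice read 6.20, 6.25, 6.40 and 6.43 and the KO mice 5.89, 5.81, 5.64 and 5.92. In eWAT the WT mice read 4.99, 4.58, 4.66 and 4.33 and the KO mice 6.15, 5.30, 5.35 and 6.14, and in iWAT 5.35, 5.20, 5.61 and 5.84 stood against 6.75, 5.99, 7.06 and 6.60. As for *Adrb3*, the genotypes were apart in all 3 depots, and the difference of effects was -1.60 ± 0.17 (SE, adjusted p = 0.0169). *Ppargc1a*, which encodes PGC-1α, read 7.26, 8.22, 6.82 and 7.32 in BAT of WT mice and 6.08, 6.02, 6.44 and 6.51 in KO mice. Its BAT values were apart, while in eWAT (3.61, 3.60, 3.91 and 3.57 in WT, 4.68, 3.78, 3.69 and 5.30 in KO) and in iWAT (5.15, 4.69, 5.16 and 4.70 in WT, 5.06, 5.25, 5.90 and 5.92 in KO) they overlapped. The difference for *Ppargc1a* was -1.79 ± 0.32 (SE, adjusted p = 0.0308), and it did not pass without the mice with B lymphocyte markers in iWAT (-1.31, adjusted p = 0.0809).

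*O3far1*, now named *Ffar4*, encodes a receptor for long-chain fatty acids. In BAT the KO values of 5.60, 5.62, 5.80 and 5.54 lay below the WT values of 6.36, 6.54, 6.28 and 6.80. In eWAT the KO values of 6.18, 5.10, 5.55 and 6.02 lay above the WT values of 4.74, 4.80, 4.80 and 4.51, while the iWAT ranges overlapped. Its difference was -1.53 ± 0.18 (SE, adjusted p = 0.0179). *Agpat2*, an acyltransferase of triglyceride and phospholipid synthesis, was the only opposite gene that passed in BAT alone. There the WT mice read 9.96, 10.05, 10.03 and 9.98 and the KO mice 9.35, 9.46, 9.43 and 9.36 (effect -0.60, adjusted p = 0.0482), whereas the effects were 0.25 in eWAT and 0.89 in iWAT.

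*Cntnap1*, a contactin-associated protein, had effects of -0.71, 0.58 and 0.98 and *Ppm1m*, a protein phosphatase, had effects of -0.45, 0.90 and 0.49, and both genes were apart in every depot. *Ces1f*, a carboxylesterase (-0.07, 2.28 and 1.31), and *Celsr2*, a cadherin of cell polarity (-0.06, 0.82 and 1.97), had small BAT effects. *Ppp1r1a*, protein phosphatase inhibitor 1 (-0.33, 1.32 and 1.70), had a larger one. In each of these genes the white fat effect made most of the difference. Genes apart in every depot with the BAT effect opposite were few. They were *Adrb3*, *Nat8l*, *Cntnap1*, *Ppm1m*, *Mapkapk5* and the mitochondrial gene *ND5* in this direction (0.0243% of all genes) and 3 genes in the other (0.0122%). In the single depots 7.23%, 21.6% and 8.15% of genes were apart, and whether these shares alone give as many was not tested. The differences for *Mapkapk5* (-0.38, adjusted p = 0.111) and *ND5* (-0.15, adjusted p = 0.490) did not pass.

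Among genes higher in BAT and lower in white fat, *Igfbp3*, a secreted binding protein for insulin-like growth factors, showed the second largest difference. In eWAT it read 6.19, 6.36, 6.77 and 6.49 in WT and 4.91, 5.67, 4.50 and 4.23 in KO, and in iWAT 7.19, 7.33, 7.41 and 7.43 in WT and 4.48, 5.99, 4.27 and 5.70 in KO. In BAT the WT values of 4.32, 5.39, 4.25 and 4.58 overlapped the KO values of 4.87, 4.85, 4.64 and 5.08. The white depots were apart and BAT was not. The effects were 0.22, -1.62 and -2.23 and the difference was 2.15 ± 0.33 (SE, adjusted p = 0.0213).

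*Cdkl4*, a kinase related to the cyclin-dependent kinases, had the largest difference of this direction, 2.65 ± 0.38 (SE, adjusted p = 0.0179). Its eWAT values were 5.34, 6.30, 5.59 and 6.24 in WT and 2.57, 3.92, 2.37 and 2.28 in KO. In BAT all 8 values lay between 1.35 and 1.68, at percentile 8.9 of the BAT table (where 100 is the gene with the highest level). *Rassf4*, a Ras association domain protein, had effects of 0.51, -1.37 and -1.08, with BAT values of 4.69, 4.32, 4.84 and 4.57 in WT and 4.82, 4.91, 5.16 and 5.55 in KO. Its BAT ranges overlapped by 1 mouse, and its difference was 1.73 ± 0.32 (SE, adjusted p = 0.0309). *Lum*, the matrix proteoglycan lumican, had effects of 0.29 and -2.56 in BAT and eWAT and -0.18 in iWAT, where its ranges overlapped. Without the mice with muscle in BAT the difference for *Lum* missed the threshold (1.87, adjusted p = 0.0508).

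*Hpgds*, a prostaglandin D synthase (0.05, -2.59 and -1.13), *Acer3*, a ceramidase (0.12, -2.31 and -0.99), *Clec7a*, the β-glucan receptor of macrophages (0.11, -2.45 and -0.80), and *Cilp*, a matrix protein (0.01, -2.72 and -0.89), had BAT effects near 0. *Clec7a* in eWAT was 7.74 to 8.10 in the WT mice and 4.25, 7.45, 5.50 and 4.57 in the KO mice, so KO mouse 2 lay close to WT for this gene as for the macrophage mean. The macrophage mean moved with these genes, and its part in the result was not tested. In bulk tissue, fewer cells of a type and less RNA per cell cannot be told apart.

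Only *Npc1*, *Lman1* and *Tmem65* (0.0122% of all genes) were apart in every depot with BAT higher. *Npc1*, which moves cholesterol out of lysosomes, read 4.53, 4.28, 4.42 and 4.14 in BAT of WT and 4.90, 4.70, 4.53 and 4.95 in KO. In eWAT the WT values of 4.79, 4.91, 4.90 and 4.82 lay above the KO values of 4.16, 4.54, 4.08 and 4.58. The separation in BAT was narrow, since the highest WT and lowest KO values were nearly equal, and the difference of effects was 0.79 ± 0.15 (SE, adjusted p = 0.0319). *Lman1*, a cargo receptor between the endoplasmic reticulum and the Golgi, had effects of 0.27, -0.60 and -0.30, and *Tmem65*, a mitochondrial inner membrane protein, had effects of 0.12, -0.63 and -0.53.

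**Figure D3:**
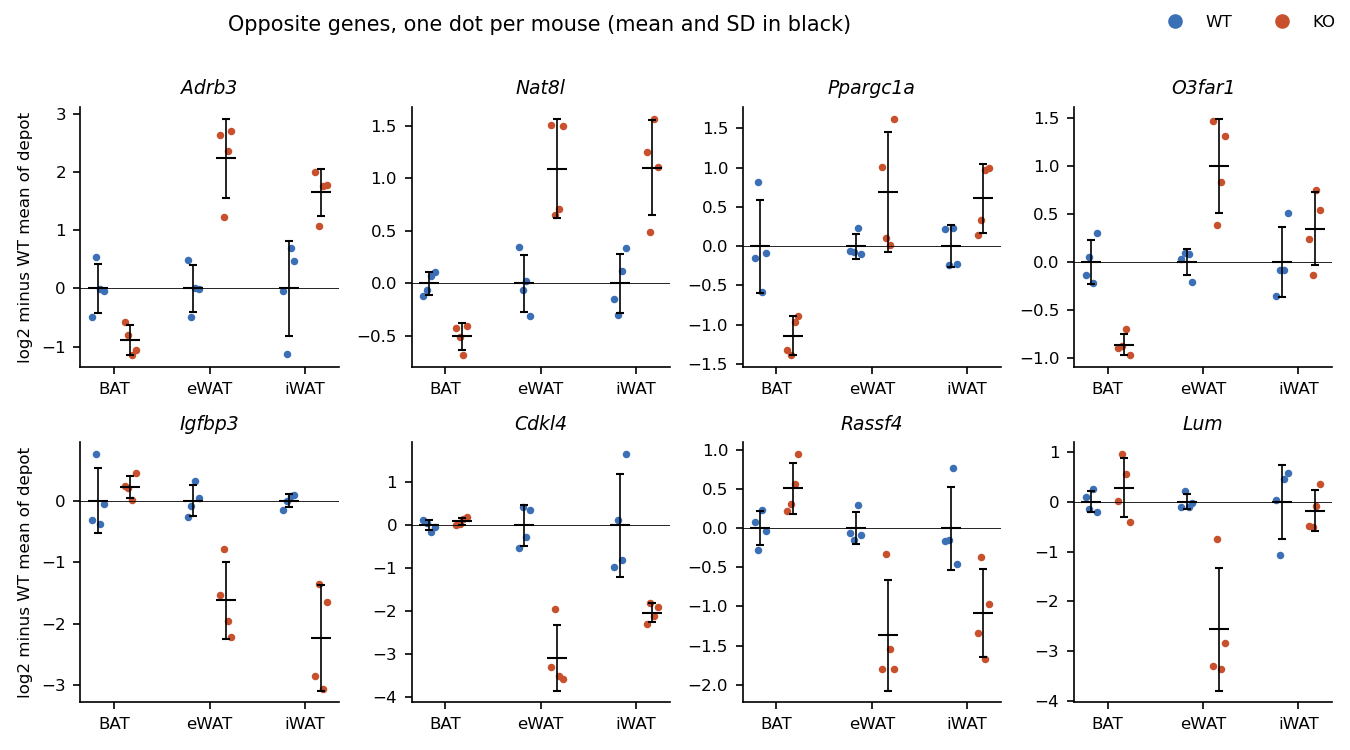
Log2 value minus the WT mean of the depot for *Adrb3*, *Nat8l*, *Ppargc1a*, *O3far1*, *Igfbp3*, *Cdkl4*, *Rassf4* and *Lum*, each point 1 mouse, with the mean and SD of 4 mice per genotype. For *Adrb3* and *Nat8l* the KO points lie below the WT points in BAT and above them in eWAT and iWAT, and for *Cdkl4* and *Igfbp3* the KO points lie below the WT points in both white depots and overlap them in BAT.

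In 3 genes the sign was the same in all depots and the larger effect was in BAT. *Pmepa1*, a TGF-β-induced inhibitor of SMAD signalling, read 8.12, 9.06, 8.73 and 9.11 in BAT of WT mice and 7.14, 6.53, 7.0 and 7.07 in KO mice. Its BAT effect of -1.82 stood against -0.07 in eWAT and -0.40 in iWAT. *1500026H17Rik* (0.75, 0.07 and 0.06) and *BC051226* (0.92, 0.35 and 0.13) were higher in KO, and no role is known for either from the files used here.

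The common effect passed for 2832 genes, 864 higher in KO (3.51% of genes) and 1968 lower (7.99%), against 7450 at an unadjusted p below 0.05. Of these, 2434 had the same sign in all 3 depots, 750 higher and 1684 lower. Among the 2434, 123 (0.499% of all genes) were also apart in every depot (30 higher, 93 lower). The 750 higher genes had median effects in BAT, eWAT and iWAT of 0.24, 0.48 and 0.40. For the 1684 lower ones the medians were -0.22, -0.62 and -0.42. Lower genes made 69.5% of the 2832 but 48.3% of the 2249 that passed when each depot was quantile normalized, so the balance of the directions hung on the scaling. Of the 2832, 302 passed for the difference of effects as well. Without single mice 408 to 1945 genes passed, apart from 5241 without KO mouse 2. Leaving out KO mouse 1 gave 408, WT mouse 4 529, WT mouse 2 611, KO mouse 3 725, WT mouse 1 1577 and WT mouse 3 1687. Without the mice with muscle in BAT 2326 passed, and without those with B lymphocyte markers in iWAT 3503.

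Of the genes lower in all 3 depots, *Mest*, an imprinted gene that follows the expansion of fat tissue, fell by 1.85 ± 0.25 (SE, adjusted p = 0.0137) on the log2 scale. In BAT it read 4.20, 5.62, 4.05 and 5.27 in WT and 3.16, 3.56, 3.13 and 3.33 in KO, and in eWAT 9.75, 10.04, 10.17 and 9.95 in WT and 9.19, 8.52, 7.67 and 8.0 in KO. In iWAT the WT mice read 8.77, 10.24, 9.73 and 10.55 and the KO mice 6.86, 7.45, 6.78 and 8.54. Each KO mouse lay below each WT mouse in all 3 depots, which was the rule by which the genes named here and in the next 3 paragraphs were picked. *Hmox1*, the enzyme that breaks down haem, was also apart in every depot, with effects of -1.64, -2.19 and -0.84 and a common effect of -1.56 ± 0.21 (SE, adjusted p = 0.0137). In BAT its WT values of 4.57, 5.32, 6.46 and 6.08 stood against 3.55, 4.34, 3.81 and 4.14 in KO.

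*Lipa*, the lysosomal lipase, fell with effects of -0.63, -1.87 and -0.88, *Tubb2a*, a β-tubulin, with -0.69, -1.72 and -0.84, and *Nedd9*, a scaffold of integrin signalling, with -0.70, -0.84 and -1.45. *Prg4*, the lubricating proteoglycan, fell in the common effect too (-0.40, -1.49 and -1.81), though not without the mice with muscle in BAT (adjusted p = 0.0628). *Tm4sf19*, a tetraspanin-like membrane protein, had effects of -0.15, -3.44 and -0.80, the largest of them in eWAT, and its difference of effects passed as well (1.97, adjusted p = 0.0352). In BAT it was low (percentile 34.1), at 2.22 to 2.50 in WT and 2.04 to 2.22 in KO mice. The separation there was narrow, and the BAT effect had an unadjusted p of 0.137 by limma.

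Of the genes higher in all 3 depots, *Klf15*, a glucocorticoid-responsive transcription factor of amino acid and lipid metabolism, rose by 1.25 ± 0.19 (SE, adjusted p = 0.0142). Its WT values were 4.76, 4.71, 4.81 and 5.29 in BAT and its KO values 5.66, 5.36, 5.35 and 5.84. In eWAT the WT values of 4.57, 3.38, 4.11 and 4.29 lay below the KO values of 6.29, 5.43, 6.04 and 6.39, and in iWAT 5.46, 4.81, 5.95 and 5.47 lay below 6.76, 5.98, 6.91 and 6.59. The genotypes were apart in each depot, as the rule for picking these genes asked, and narrowly so in BAT and iWAT. *Cfd*, the adipokine adipsin, rose with effects of 0.49, 2.32 and 0.83 and a common effect of 1.21 ± 0.20 (SE, adjusted p = 0.0143).

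*Agpat6*, now named *Gpat4*, a glycerol-phosphate acyltransferase of triglyceride synthesis, rose with effects of 0.49, 1.28 and 0.92. *Slc43a1*, a transporter of large neutral amino acids (0.59, 1.06 and 0.96), *Trit1*, a tRNA-modifying enzyme (0.54, 1.25 and 0.45), *Rpph1*, the RNA of RNase P (0.43, 1.23 and 0.54), and *St3gal4*, a sialyltransferase (0.23, 1.29 and 0.67), rose as well. *C130050O18Rik* had the largest common effect of the named genes, 2.95 ± 0.56 (SE, adjusted p = 0.0170). It did not pass without the mice with muscle in BAT (2.28, adjusted p = 0.0599), which leaves WT mouse 1 as 1 of only 2 WT mice.

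**Figure D4:**
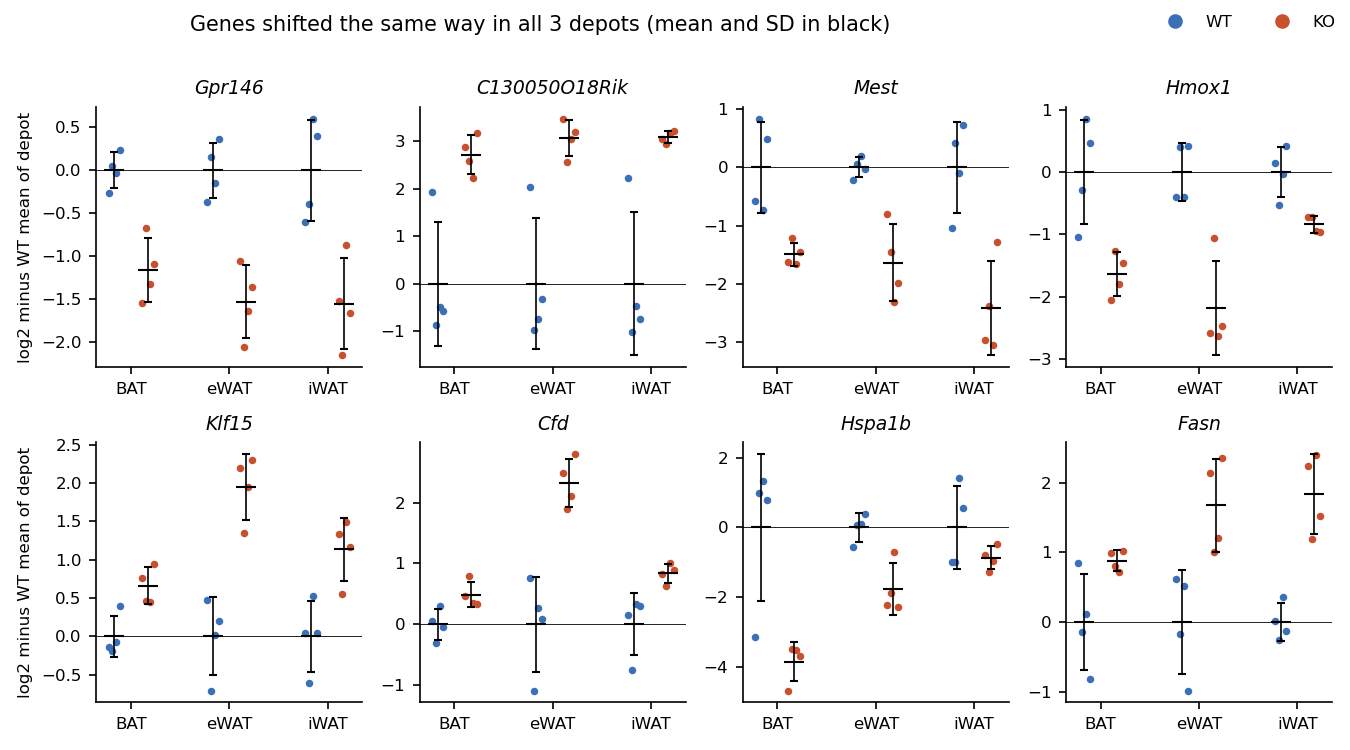
Log2 value minus the WT mean of the depot for *Gpr146*, *C130050O18Rik*, *Mest*, *Hmox1*, *Klf15*, *Cfd*, *Hspa1b* and *Fasn*, each point 1 mouse, with the mean and SD of 4 mice per genotype. *Mest* and *Hmox1* lie lower and *Klf15* and *Cfd* higher in the KO mice of all 3 depots, and the *C130050O18Rik* points of WT mouse 1 sit far above the other WT points.

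The gene lists below were described by how many members passed and by their median effects, beside 0.00, 0.03 and 0.02 over all genes in BAT, eWAT and iWAT. Of all genes, 3.51% rose and 7.99% fell in the common effect. The difference passed for 1.4% of all genes higher in BAT and 0.747% lower in BAT. Since no gene passed for the difference without WT mouse 4, KO mouse 1 or KO mouse 3, or with iWAT alone as white fat, each count of differences in a list was 0 there as well. In these lists a gene rose or fell in the common effect by the mean of its 3 depots, whatever its sign in BAT.

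Thermogenic genes of brown and beige fat (23 measured) had medians of -0.21, 0.13 and 0.31. Of these, 17 were lower in KO in BAT and 22 higher in iWAT by sign, against 12117 and 13123 of all 24645 genes. In the common effect 2 rose and 3 fell. The 8 markers of the brown adipocyte, all of them also members of this list, had medians of -0.29, -0.04 and 0.23. Their mean level in BAT was 7.17 to 7.44 in WT mice and 6.69 to 6.96 in KO mice, with no overlap, and their part in the result was not tested. The difference of effects passed, lower in BAT, for 3 thermogenic genes, namely *Adrb3*, *Ppargc1a* and *Cidea*, a lipid droplet protein of brown adipocytes (-0.31, 0.13 and 1.02). *Ucp1* itself, the uncoupling protein, read 11.37 to 11.59 in BAT of WT mice and 11.25, 11.36, 11.03 and 11.41 in KO mice. Its ranges overlapped, its effects were -0.21, -0.13 and -0.56, and its difference did not pass (0.14, adjusted p = 0.811). Its common effect passed narrowly (-0.30, adjusted p = 0.0489), but *Ucp1* passed in no single depot. In eWAT it was low, at 2.35 to 2.99 (percentile 39.6). In iWAT the WT values of 4.90, 3.66, 4.80 and 3.67 overlapped the KO values of 4.02, 3.10, 3.93 and 3.71.

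*Dio2*, the deiodinase that activates thyroid hormone, had effects of -1.05, 0.17 and 0.13, and the difference of -1.20 did not pass (adjusted p = 0.109). *Prdm16*, a transcription factor of brown fat identity, had -0.22, 0.19 and 0.34, and that difference did not pass either (-0.49, adjusted p = 0.194). Beside *Ucp1*, the genes that fell in the common effect were *Elovl3*, a fatty acid elongase of brown fat (-1.13, -0.22 and 0.15), and *Gyk*, glycerol kinase, now named *Gk* (-1.58, -0.85 and 0.02). Those that rose were *Adrb3* and *Cox8b*, a cytochrome oxidase subunit of brown fat and muscle (0.16, 0.77 and 2.51). Of 9 genes of creatine and calcium cycling, which can also release heat, none passed for the difference and 2 fell in the common effect, the creatine transporter *Slc6a8* (-0.02, -1.68 and -0.27) and the creatine kinase *Ckb* (-0.31, -1.43 and -0.10). *Ckmt2* (-0.42, 0.07 and -0.11), *Atp2a2* (-0.23, -0.04 and 0.08) and *Ryr2* (-0.24, -0.31 and -0.33) passed for neither. Muscle also expresses several of these genes, and muscle markers differed among the BAT arrays. The BAT median of the 9 genes was -0.23, against -0.06 without the mice with muscle in BAT and -0.07 with muscle and B lymphocyte markers as covariates, and 3 and 2 genes then fell in the common effect.

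Mitochondrial genes had higher medians in white fat than in BAT. Genes of respiratory complex I (36 measured) had medians of 0.09, 0.23 and 0.25, and 12 rose and 0 fell in the common effect. Genes of complexes II to V (39 measured) had medians of 0.05, 0.17 and 0.29, and 10 rose and 0 fell. *Ndufv1* (0.03, 0.62 and 0.56), *Sdha* (-0.03, 0.67 and 0.57) and *Cox4i1* (0.12, 0.68 and 0.87) were among the members whose difference of effects passed, each lower in BAT. After quantile normalization 23 genes of complex I and 20 of complexes II to V passed for the common effect, all higher. Without WT mouse 1 the numbers were 7 and 7 with no difference that passed, and without KO mouse 2 they were 18 and 21.

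Of 21 genes of the TCA cycle (medians 0.01, 0.26 and 0.36), *Sdha*, *Sdhb*, *Pdhb* and *Pdhx* were among those that rose in the common effect, and the difference passed for *Cs*, citrate synthase (-0.24, 0.20 and 0.41), and for *Sdha*. Of 19 genes of mitochondrial fatty acid oxidation (medians -0.14, 0.28 and 0.30), the difference passed for 4, all lower in BAT (7 after quantile normalization, 1 without WT mouse 1). These were *Acadvl* (-0.17, 0.57 and 0.85) and *Echs1* (0.06, 1.00 and 0.72) of β-oxidation, *Cpt2* of carnitine-dependent import (-0.35, 0.54 and 0.54) and *Etfb*, an electron transfer flavoprotein (0.11, 0.66 and 0.69). *Cpt1a*, which carries fatty acids into mitochondria, fell in all 3 depots instead (-0.97, -1.22 and -0.88, common adjusted p = 0.0215). Fasting and PPARα target genes (20 measured) had medians of -0.05, 0.05 and -0.01, and none of them passed for the difference. In the common effect *Ehhadh* of peroxisomal β-oxidation rose (-0.04, 0.95 and 0.98), while *Pdk4*, which restrains pyruvate oxidation (-0.28, -1.17 and -0.39), *Acot2*, a mitochondrial thioesterase (-1.06, -0.34 and -0.54), and *Plin2*, a lipid droplet protein (-0.49, -1.06 and -0.30), fell.

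Breakdown of branched-chain amino acids had the largest numbers passing among the metabolic lists. Of 20 genes, 13 rose and 0 fell in the common effect, and the difference passed for 7, all lower in BAT. Of the 13, 9 had the same sign in all 3 depots. The medians were 0.04 in BAT, 0.78 in eWAT and 0.41 in iWAT. The 7 genes were *Bckdha* (0.04, 1.19 and 0.89), *Bckdhb* (-0.07, 1.10 and 0.42) and *Dbt* (-0.14, 0.65 and 0.50) of the branched-chain ketoacid dehydrogenase, *Mccc1* (0.15, 1.16 and 0.83) and *Mccc2* (-0.03, 1.07 and 0.59) of methylcrotonyl-CoA carboxylase, *Pccb* of propionyl-CoA carboxylase (0.01, 0.94 and 0.83), and *Aldh6a1* of valine breakdown (0.07, 1.06 and 0.49). The number with a passing difference was 1 without the mice with B lymphocyte markers in iWAT and 0 without WT mouse 1. Markers of the white adipocyte (8 measured) also had higher medians in white fat than in BAT (0.01, 0.54 and 0.32), and in the common effect 4 rose and 1 fell. Their mean level in eWAT was 6.45 to 6.74 in WT mice and 6.80 to 7.06 in KO mice, and their part in the result was not tested.

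Lipid synthesis was the metabolic list with the highest median in BAT. Of 19 genes of de novo lipogenesis (medians 0.21, 0.53 and 0.43), 9 rose and 0 fell in the common effect. Of the 9, 6 had the same sign in all 3 depots. *Fasn*, fatty acid synthase, read 11.16, 10.17, 10.42 and 9.50 in BAT of WT mice and 11.30, 11.11, 11.03 and 11.33 in KO mice, with WT mouse 1 inside the KO range. In iWAT *Fasn* was 6.91 to 7.53 in WT and 8.36 to 9.56 in KO, with no overlap. Its effects were 0.88, 1.67 and 1.84 and its common effect was 1.46 ± 0.25 (SE, adjusted p = 0.0146). *Acaca*, acetyl-CoA carboxylase, had effects of 1.26, 1.54 and 1.02, with no overlap of KO and WT in BAT or eWAT, and its common effect was 1.27 ± 0.22 (SE, adjusted p = 0.0146).

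Some lipogenic genes parted by depot. *Elovl6*, which lengthens palmitate, read 9.48, 9.23, 8.92 and 8.74 in BAT of WT mice and 9.76, 9.31, 9.22 and 9.56 in KO mice. In eWAT it read 6.21, 6.16, 5.76 and 5.98 in WT and 5.46, 5.39, 4.05 and 5.0 in KO, so its effects were 0.37, -1.05 and -0.69 and its difference passed (1.24, adjusted p = 0.0179). *Acly*, which makes cytosolic acetyl-CoA, had effects of 1.46, 0.36 and -0.08, and the difference of 1.32 did not pass (adjusted p = 0.0656). *Srebf1*, the transcription factor SREBP-1 (-0.09, 0.55 and 1.02), *Gpam*, a mitochondrial glycerol-phosphate acyltransferase (-0.25, 1.72 and 0.49), and *Thrsp*, a lipogenic nuclear protein (0.40, 1.24 and 1.51), had differences that passed, lower in BAT.

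Cholesterol synthesis and uptake genes (25 measured) had medians of 0.03, -0.48 and -0.15, and 1, *Pmvk* (0.44, 0.33 and 0.33), rose and 8 fell in the common effect. *Dhcr7*, the last enzyme of the pathway, read 5.11, 5.15, 4.91 and 5.03 in BAT of WT mice and 5.62, 5.37, 5.54 and 5.55 in KO mice, and in eWAT 5.33 to 5.39 in WT and 4.09 to 4.73 in KO. Every KO mouse was above the WT mice in BAT and below them in eWAT, and the iWAT values overlapped (difference 1.06, adjusted p = 0.0179). *Hmgcs1*, the cytosolic HMG-CoA synthase, fell in all 3 depots (-0.85, -1.10 and -0.73).

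Adipokine and adipocyte size genes (20 measured) had medians of -0.06, 0.48 and 0.12. The difference passed, lower in BAT, for *Slc2a4*, the insulin-regulated glucose transporter (0.09, 0.94 and 0.91), and *Plin1*, the lipid droplet coat protein (-0.29, 0.65 and 0.41). Without KO mouse 2 the difference passed for 9 genes, all lower in BAT, and without WT mouse 1 for 1, higher in BAT. *Lep*, leptin, fell in the common effect (adjusted p = 0.0370) with effects of -0.01, -0.98 and -0.78, the BAT effect being near 0. *Retn*, resistin (0.16, 1.32 and 0.56), and *Rbp4*, retinol-binding protein (0.13, 1.28 and 0.57), rose.

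Macrophage genes were lower in white fat and less so in BAT. General macrophage genes (20 measured) had medians of -0.15, -1.71 and -0.91, the difference passed for 11, all higher in BAT, and 7 fell in the common effect. *Emr1*, the F4/80 antigen now named *Adgre1*, had effects of -0.55, -2.34 and -1.36, *Itgam*, the integrin CD11b, had -0.39, -2.49 and -1.31, and *Csf1r*, the receptor for macrophage growth factors, had -0.14, -1.56 and -0.96. *Cd68*, a lysosomal glycoprotein, fell in the common effect (-0.67, -2.26 and -1.41), and its difference did not pass (1.17, adjusted p = 0.0775). The 11 were 13 without the mice with muscle in BAT, 12 without those with B lymphocyte markers in iWAT and 3 without WT mouse 1. The 7 of the common effect were 18 and 16 without those mice, 18 without KO mouse 2, 4 after quantile normalization and 3 without WT mouse 1.

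Of 20 genes of lipid-associated macrophages (medians -0.15, -1.58 and -0.50), 15 fell in the common effect and the difference passed for 3, higher in BAT. These were *Atp6v0d2*, a proton pump subunit (-0.37, -3.44 and -2.01, difference 2.35, adjusted p = 0.0337), *Fabp5*, a fatty acid-binding protein (0.07, -1.18 and -0.47), and *Ctsk*, cathepsin K (-0.05, -2.98 and -0.09). The 3 were 2 without WT mouse 1, 8 with the covariates, and 11 higher and 1 lower in BAT without KO mouse 2. *Trem2*, the lipid-sensing receptor of these cells, fell in the common effect (-0.23, -3.12 and -0.78), and its difference missed the threshold (1.71, adjusted p = 0.0541). *Gpnmb*, a glycoprotein of lysosomes, fell as well (-0.87, -2.64 and -0.74). Of 10 MHC class II genes none passed for either effect, and of 22 interferon-stimulated genes 1, *Oasl1*, fell in the common effect. Without KO mouse 2, 6 class II and 10 interferon-stimulated genes fell, with 2 and 3 differences that passed, higher in BAT, and without WT mouse 1 none passed. The MHC class II medians were -0.04, -0.43 and -0.69. Arrays of iWAT with B lymphocyte markers had class II means of 8.10 and 7.99 (WT mice 1 and 2) and 7.82 and 6.58 (KO mice 2 and 4). On the rest the class II mean was 5.60 to 6.75, so KO mouse 4 lay within that range. Without the mice that carried those markers the medians were -0.16, -0.70 and -0.70 and 4 class II and 7 interferon-stimulated genes fell. With the covariates 1 and 0 fell.

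Cell cycle genes (24 measured) had medians of 0.03, -1.01 and -0.19, with 9 differences that passed, all higher in BAT, and 12 genes that fell in the common effect. Their mean level in BAT was only 2.25 to 2.34 in WT mice and 2.34 to 2.40 in KO mice. This lay under the BAT array medians of 2.82 to 2.86, so little room was left for a fall in BAT. Of the 12, 6 had the same sign in all 3 depots. *Mki67*, the proliferation antigen Ki-67 (-0.02, -1.93 and -0.71), *Ccnb2*, a mitotic cyclin (0.10, -1.88 and -0.71), and *Cdk1*, the mitotic kinase (0.06, -1.22 and -0.07), were among the 9. The count was 5 after quantile normalization, 4 without the mice with B lymphocyte markers, 2 without WT mouse 1 and 14 without KO mouse 2. The 12 that fell were 8 without the mice with muscle in BAT, 3 without WT mouse 1 and 19 without KO mouse 2. Collagen and matrix genes (31 measured) had medians of -0.08, -0.96 and -0.09, so that iWAT lay with BAT rather than with eWAT. Of these, 13 fell in the common effect, and 7 of the 13 had the same sign in all 3 depots. The difference passed for *Lum*, *Col14a1*, a fibril-associated collagen (0.01, -1.73 and -0.46), and *Fbn1*, fibrillin (0.09, -1.49 and -0.34). The 13 were 7 after quantile normalization and 5 without WT mouse 1.

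In the TGF-β list (20 measured; medians -0.15, -0.30 and -0.23) the difference passed in opposite directions for *Pmepa1* and for *Tgfbr1*, the type I receptor (0.34, -0.77 and -0.22). The ligand *Tgfb1* (-0.48, -1.38 and -0.86) and *Skil*, a repressor of SMAD signalling (-0.82, -0.26 and -0.78), were among 7 genes that fell in the common effect, and *Inhbb*, an inhibin subunit (0.06, 0.14 and 0.73), rose. ERK feedback and immediate-early genes (29 measured) had medians of -0.43, -0.40 and -0.18. None of them passed for the difference and 3 fell in the common effect, *Egr2* (-0.23, -2.13 and -0.69) and *Fosl2* (-0.37, -0.52 and -0.58), both transcription factors, and *Spred1*, an inhibitor of Ras signalling (-0.85, -0.99 and -0.38).

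Heat shock chaperones had the lowest BAT median of the lists of genes by function. Of 18 genes (medians -0.61, -0.46 and -0.30), 10 fell in the common effect. *Hspa1b*, the inducible HSP70, read 3.89, 8.02, 8.36 and 7.81 in BAT of WT mice and 2.35, 3.54, 3.50 and 3.34 in KO mice. WT mouse 1 lay just above the KO mice and far below the other WT mice. In eWAT *Hspa1b* read 5.66, 6.31, 6.32 and 6.61 in WT and 4.00, 4.35, 5.53 and 3.94 in KO, also apart. Its common effect was -2.16 ± 0.46 (SE, adjusted p = 0.0222), and its difference of -2.52 did not pass (adjusted p = 0.0775). The 10 became 0 without the mice with muscle in BAT, 3 after quantile normalization, 12 without WT mouse 1 and 11 with muscle and B lymphocyte markers as covariates, where 2 differences also passed, lower in BAT. Without the mice with muscle in BAT the medians were -0.42, -0.46 and -0.33. Leaving those mice out took away WT mice 2 and 3, whose BAT chaperone means were high (6.84 and 6.74). It left WT mouse 1, at 5.78 beside the KO mice, as 1 of only 2 WT mice, so the 0 does not show a part of muscle.

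Clock genes (19 measured) had medians of -0.08, 0.51 and 0.42, none passed for the difference, and *Bhlhe41*, a transcriptional repressor (0.64, 0.48 and 0.98), and *Tef*, a leucine zipper factor (0.23, 0.69 and 0.49), rose in the common effect. Without KO mouse 2, 8 rose and 1 fell, without WT mouse 1 none passed, and without the mice with muscle in BAT 4 rose and 1 fell, with 1 difference higher and 3 lower in BAT. Among markers of other cells, *Lrrn4* of mesothelium (0.42, -0.92 and 0.17) and *Pdgfra* of adipose progenitors (0.11, -1.13 and -0.38) had differences that passed, higher in BAT. The mean of the mesothelium markers in BAT was low, at 2.46 to 2.62, under the BAT array medians of 2.82 to 2.86. *Upk3b* of mesothelium (0.01, -1.62 and 0.22) and *Pdgfrb* (-0.17, -0.93 and -0.11) and *Ly6a* (-0.39, -0.68 and -0.56) of progenitors fell in the common effect. No T lymphocyte marker of 12 passed for either effect, and of 10 endothelial markers 1, *Egfl7*, rose in the common effect.

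**Figure D5:**
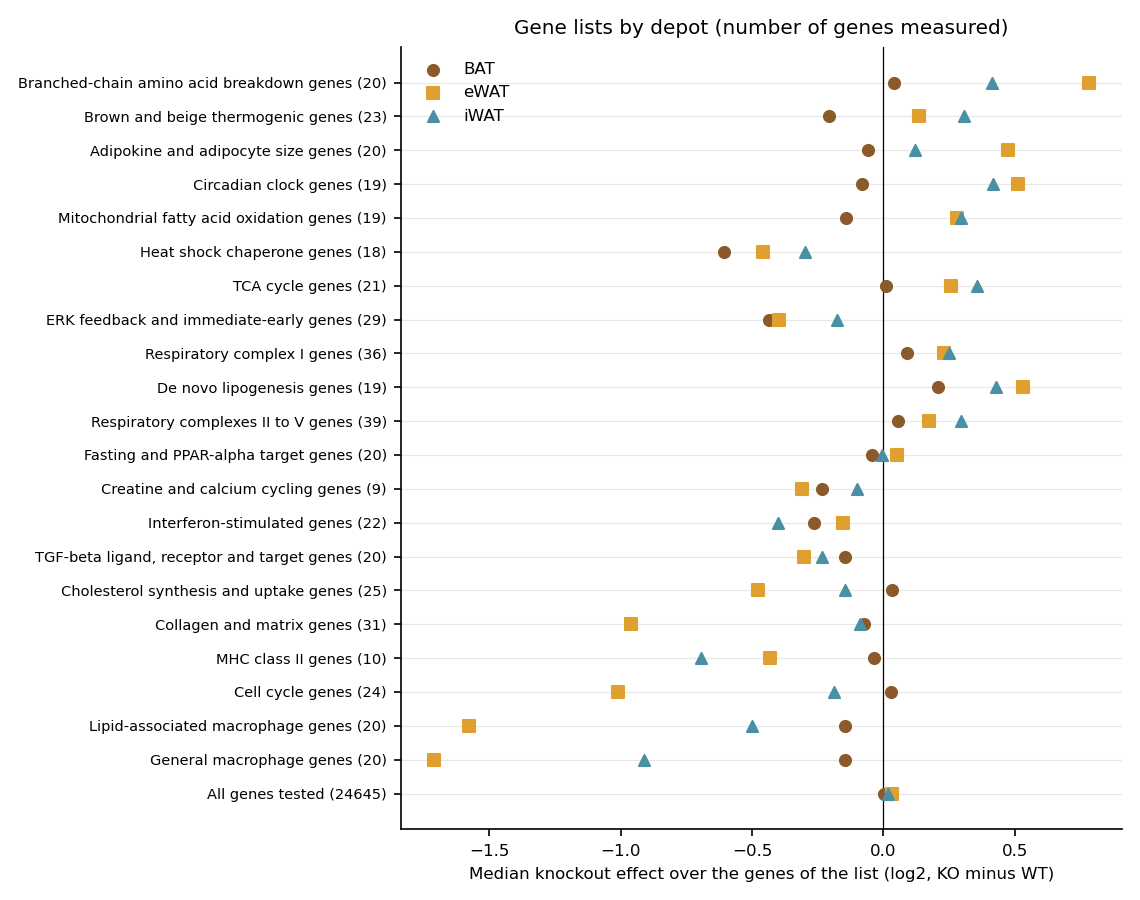
Median knockout effect (log2) of 21 gene lists and of all genes tested in BAT, eWAT and iWAT, each point the median over the measured genes of a list in 1 depot. Macrophage lists lie furthest to the left in eWAT at -1.71 and -1.58 with BAT at -0.15, branched-chain amino acid breakdown lies at 0.78 in eWAT and 0.04 in BAT, and heat shock chaperones are lowest in BAT at -0.61.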

How the data were processed

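Total RNA (100 ng) from each depot was hybridised to Affymetrix arrays. The authors deposited log2 values, 1 per gene symbol and array, in a table per depot, with 840 genes averaged over probe sets; the method of background correction and normalization is not given in the sources used here. Entries with a blank or number for a name (3 in BAT, 2 in eWAT, 3 in iWAT) were left out. limma 3.58.1 (R 4.3.3) was fitted to KO minus WT per depot, to the per-mouse difference and to the per-mouse mean, with Benjamini-Hochberg adjustment over 24645 genes. Mouse numbers in the labels joined the depots (residual correlations of -0.02 to 0.30 between depots). Named genes were the 8 largest per direction without overlap of genotypes among genes with a name, plus genes of the study and list members. The members and lists were chosen with earlier results of these data known. The fit of the difference was checked on simulated data with independent noise for each gene and array. The other fits were not checked in this way. In all, 21 alternatives were planned and 3 were added after the data were seen. The number of arrays limits the precision. Older symbols were matched through the RefSeq table of GRCm38.p6, which also gave the neighbour of *Gpr146*. Figures used matplotlib 3.10.9. Some list members are not reported here.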

Additional observations from a re-analysis of the deposited data

Results flagged for a closer look

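The knockout effect differed between BAT and white fat for 529 genes by limma. Among the named genes the difference, BAT minus white, was 2.65 for *Cdkl4*, 2.15 for *Igfbp3*, 1.91 for *Hpgds*, 1.81 for *Cilp*, 1.77 for *Acer3*, 1.74 for *Clec7a*, 1.73 for *Rassf4* and 1.66 for *Lum*. It was -2.84 for *Adrb3*, -1.86 for *Ces1f*, -1.84 for *Ppp1r1a*, -1.79 for *Ppargc1a*, -1.60 for *Nat8l*, -1.53 for *O3far1*, -1.49 for *Cntnap1* and -1.46 for *Celsr2*.

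In 10 of 94 groups of 4 mice, 1 mouse stood apart from the other 3, by Dixon's 95% limit on the gap over the range, and chance gives about 1 in 20 groups. KO mouse 2 stood apart in the BAT minus white value of *Cdkl4* (-1.41), *Igfbp3* (-0.98) and *Nat8l* (0.17), in the mean of depots of *Agpat6* (8.11) and in the muscle markers of BAT (7.36). WT mouse 2 stood apart in the BAT minus white value of *Ces1f* (0.39) and the mean of depots of *Klf15* (4.30). WT mouse 1 stood apart in the mean of depots of *C130050O18Rik* (6.43) and the heat shock mean of BAT (5.78), and KO mouse 3 in the B lymphocyte mean of eWAT (3.72).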

How the results depend on the processing

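No named gene reversed: of 702 values under the alternatives, 534 kept direction and side of the threshold and 168 kept direction only. These genes were picked for no overlap of genotypes, so leaving out mice could not reverse them. The difference count of 529 (320 opposite) was 826 without dim genes (9776 tested), 1028 (595) with array weights, 138 (114) in a fit of 24 independent arrays, 348 with the mouse as a random block, 1707 (998) with eWAT alone, 0 (0) with iWAT alone, 1005 (598) with muscle and B lymphocyte covariates, and 0 to 1666 (0 to 813) without single mice. The methods' t-test gave 3802 (2129) before and 0 (0) after adjustment for the difference, 6808 (5374 of the same sign) and 9 (7) for the common effect, 2803 and 0 in BAT, 6798 and 38 in eWAT, and 3167 and 1 in iWAT. The common count of 2832 (2434) ranged over 408 to 5241 (369 to 4202) without single mice. In BAT the 7 became 0 under quantile normalization (per depot or over 24 arrays), equal medians, the covariates and without the mice with muscle or B lymphocyte markers, 29 without dim genes and 0 to 80 without single mice. The eWAT count was 1658 without the mice with B lymphocyte markers and 1448 to 5430 without single mice, and the iWAT count 916, 98 with the covariates and 0 to 227. Opposite and equal signs numbered 2501 and 4893 without dim genes, and 5986 to 6532 and 10564 to 11320 without single mice. With mouse number as a replicate block pairing KO with WT, the difference gave 991 (581 opposite), BAT 0 and iWAT 1. KO and WT mice of the same number correlated at 0.01 to 0.22 in BAT, 0.00 to 0.16 in eWAT and -0.38 to 0.67 in iWAT. The means were 0.13, 0.06 and 0.23. Between depots of 1 mouse they were 0.09 (BAT and eWAT), 0.04 (BAT and iWAT) and 0.10 (eWAT and iWAT), so these values do not settle whether the number pairs KO with WT. The labels do not name such pairs, and the main fits used none. The causes were not tested. Signal on dim genes limits what BAT effects can show.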

Other observations

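Small nucleolar RNA genes, grouped after their values were seen, were higher in KO in each depot by their medians (0.52 in BAT, 0.70 in eWAT and 0.49 in iWAT, against 0.00, 0.03 and 0.02 over all genes). By sign 91, 86 and 86 of 98 genes were higher in BAT, eWAT and iWAT, and in the common effect 58 rose and 0 fell by limma. Of all 24645 genes, 12528, 13927 and 13123 were higher by sign in these depots, and 864 (3.51%) rose in the common effect. Their mean level in BAT was 6.04, 5.85, 6.41 and 6.09 in WT mice and 6.66, 6.64, 6.94 and 6.20 in KO mice, so KO mouse 4 lay inside the WT range. In iWAT it was 6.42, 6.48, 6.29 and 5.97 in WT and 7.15, 6.95, 6.85 and 6.23 in KO, where KO mouse 4 again lay inside the WT range.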
